A study of Mus musculus with 2 samples.

Results

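The genes described here encode proteins that seal the blood-brain barrier at contacts between brain endothelial cells. There are 9 members, Cdh5, Cldn5, Ocln, Tjp1, Esam, Jam2, Marveld2, Afdn and Ctnna1, chosen by symbol from the 30905 genes of the count matrix. All 9 were present, and all 9 passed the minimum of 20 unique molecular identifiers (UMIs, the tags that mark single RNA molecules) over the nuclear classes compared. The series measured RNA in single nuclei from frozen cerebral cortex of untreated wild-type C57BL/6 mice on a normal diet, with the 10x Genomics droplet platform. Its groups were an aged sample, labelled 18 months and given as 18 to 22 months in the design text, and a young sample, labelled 2 months and given as 2 to 3 months. Each was a pool of 3 mice. The matrix holds both as barcodes with 2 suffixes, and nothing in the labels or files tied a suffix to an age. The suffixes are therefore called library 1 and library 2, the matrix counts as 1 sample, and no comparison between ages was made.

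Endothelial cells of brain vessels are joined by adherens junctions, in which VE-cadherin binds its like on the neighbouring cell and is anchored to actin through catenins. Tight junctions lie beside them, built from claudins, occludin and related membrane proteins held by cytoplasmic scaffolds of the zonula occludens family. Together they restrict the passage of solutes between cells, and a layer of barrier cells in the meninges also carries junctions of both kinds.

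Promoters were held for 5 of the 9 members in the RefSeq table (build GRCm38.p6), with 7 starts among them. The 250 bases before the start are shown for a claudin gene whose level was highest in endothelial nuclei, a scaffold gene found in every class and the member that was highest in fibroblasts. Capitals mark the GC box GGGCGG on either strand, written CCGCCC on the lower one.
Cldn5, chr16:18776597-18776846, plus strand: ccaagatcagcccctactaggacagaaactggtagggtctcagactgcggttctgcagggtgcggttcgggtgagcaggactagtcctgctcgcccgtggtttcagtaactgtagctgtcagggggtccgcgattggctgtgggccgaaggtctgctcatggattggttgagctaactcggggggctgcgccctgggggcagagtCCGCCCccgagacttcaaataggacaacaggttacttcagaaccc
Tjp1, chr7:65371245-65371494, minus strand: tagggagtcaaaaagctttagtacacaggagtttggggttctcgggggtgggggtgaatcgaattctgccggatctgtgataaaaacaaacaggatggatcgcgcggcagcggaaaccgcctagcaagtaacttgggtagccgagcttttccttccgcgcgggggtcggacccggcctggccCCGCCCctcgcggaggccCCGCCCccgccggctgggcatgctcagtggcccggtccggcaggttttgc
Afdn, chr17:13760291-13760540, plus strand: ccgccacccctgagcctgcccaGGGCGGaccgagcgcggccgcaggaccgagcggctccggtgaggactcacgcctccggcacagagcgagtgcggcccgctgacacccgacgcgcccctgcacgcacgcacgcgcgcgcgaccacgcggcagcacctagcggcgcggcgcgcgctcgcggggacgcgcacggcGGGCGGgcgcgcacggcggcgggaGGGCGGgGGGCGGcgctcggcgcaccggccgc

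A GC box was present in the windows of all 5 genes, and in 32.7% of the 32851 windows of the same length in the table. The 2 windows of Marveld2 overlap and hold the same box. The Cldn5 window held 1 copy, that of Tjp1 held 2 and that of Afdn held 4. GC content was 59.6% for Cldn5, 63.2% for Tjp1 and 82.8% for Afdn, against a median of 52.4% over all windows. The core motif of ETS factors, GGAAG, was in 64.1% of all windows, in the Tjp1 window once and in neither of the other windows shown. The SOX core ACAAAG, in 16.5% of all windows, was in none of the 7 member windows, and the TATA box TATAAA, in 12.4%, was in those of Marveld2. The Tjp1 window starts inside the longer gene span given by GENCODE.

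The positions of the genes in the mm10 build (GENCODE vM21) place Cdh5 at chr8:104101625-104144511, Cldn5 at chr16:18776847-18778262 and Ocln at chr13:100496507-100552718. Tjp1 lies at chr7:65296165-65527781, Esam at chr9:37528078-37538319, Jam2 at chr16:84774123-84825928, Marveld2 at chr13:100595957-100616971 and Afdn at chr17:13760539-13906150, and Ctnna1 on chromosome 18. Afdn shares 1287 bases with Tcte2 on the opposite strand, Ctnna1 shares 6022 bases with Lrrtm2, and Cdh5 shares 4249 bases with the antisense gene Gm29682. On the same strand, Tjp1 shares 1628 bases with Gm44792 and 411 with Gm44794, and Jam2 shares 98 with Gm25908. Whether counting used strand is not given in the sources used here, so reads from any of these stretches could belong to either gene.

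The matrix held 118655443 UMIs in 17501 barcodes, 58108297 in library 1 and 60547146 in library 2, with medians of 5992 and 6450 UMIs per barcode. After filters, 8286 and 7954 nuclei remained, and 19 barcode sequences occurred in both libraries. Nuclei were clustered without the members and without other junction genes, so no member took part in defining a class. Classes were named from markers, as endothelial-like, fibroblast-like and so on, with the ending left out below. There were 157 and 300 endothelial nuclei, 1.89% and 3.77% of each library, and 198 and 209 fibroblast nuclei. The compared classes were these and 64 and 83 pericyte and smooth muscle nuclei, 445 and 428 astrocytes, 895 and 425 oligodendrocytes, 132 and 156 oligodendrocyte precursors, 216 and 210 microglia, 4472 and 4488 excitatory neurons, 393 and 233 striatal projection neurons, and 722 and 612 inhibitory neurons. Neurons with striatal markers were present in tissue labelled as cortex. All 11 endothelial markers, among them Flt1 and Pecam1, were detected in the endothelial nuclei of both libraries. Their summed level was 7.92% and 6.39% of the endothelial level in fibroblasts, 2.43% and 2.50% in pericyte and smooth muscle nuclei, 0.293% and 0.897% in astrocytes and 0.176% and 0.333% in excitatory neurons.

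Levels below are UMIs of a gene per 1000000 UMIs of its class (CPM), with the value of library 1 before that of library 2. Brackets give 95% Poisson intervals, which cover counting error and not differences between animals. There is 1 sample, so no p-value is given. In nuclei, a low class level and a small share of nuclei with the transcript cannot be told apart from the sums alone.

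Of the 9 members, 8 had their highest level over the 10 compared classes in endothelial nuclei in both libraries, and Afdn had its highest level in fibroblasts. Over all 18591 genes measured, 6.18% were highest in endothelial nuclei in both libraries. The same 8 members were at least 2-fold above the mean of the other 9 classes in both libraries, as were 6.21% of all genes. On a log2 scale with 1 CPM added to each level, the median ratio of endothelium to that mean was 2.80 and 2.91 for the members and -0.13 and -0.06 for all genes. Fibroblasts had the second-highest level among the compared classes for Cdh5, Cldn5, Ocln and Ctnna1 in both libraries. Over fibroblasts alone, 5 of the 9 were at least 2-fold higher in endothelial nuclei in both libraries, namely Cldn5, Ocln, Esam, Jam2 and Marveld2, against 4.94% of all genes. None of the 9 was at least 2-fold lower there than in fibroblasts in both libraries, against 7.56% of all genes.

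**Figure D1:**
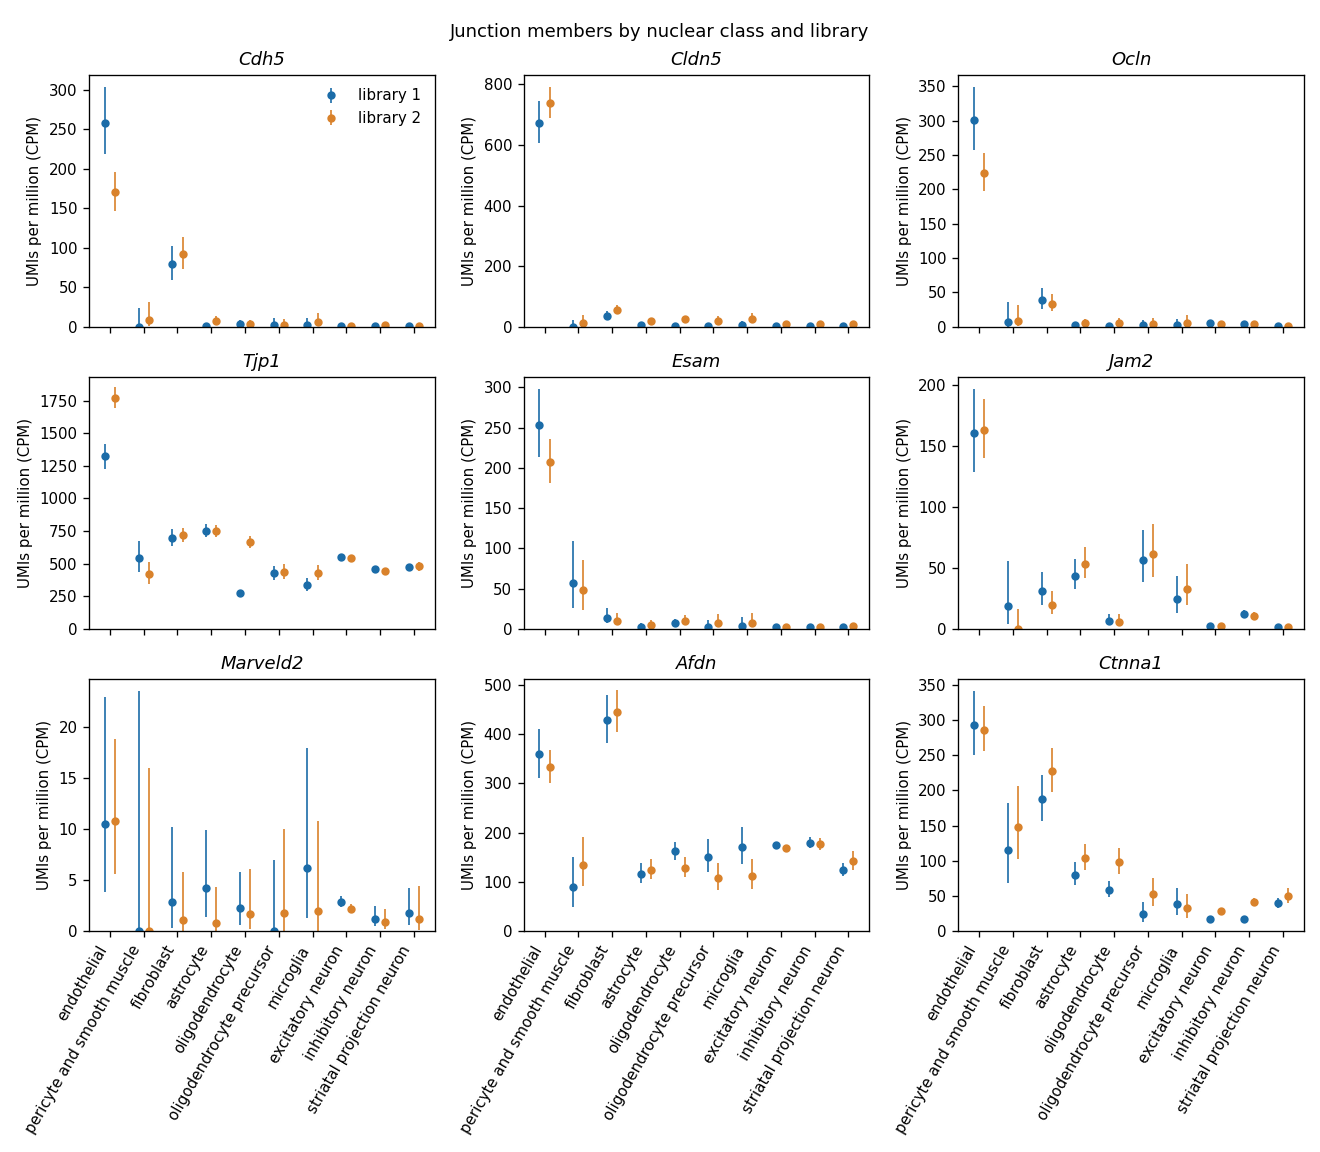
Level of each of the 9 members (UMIs per 1000000 UMIs of the class) in the 10 compared classes, with library 1 and library 2 as separate points and 95% Poisson intervals as bars. Cldn5, Ocln and Esam stood high in endothelial nuclei and near 0 in neurons, Tjp1 and Afdn were present in every class, and Cdh5 had its second-highest level in fibroblasts, at 78.8 and 91.8 CPM.

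Cdh5 encodes VE-cadherin, the adhesion receptor of the endothelial adherens junction. Endothelial nuclei held 258 CPM [218 to 304] from 147 UMIs in library 1 and 170 CPM [147 to 196] from 189 UMIs in library 2. Fibroblasts held 78.8 CPM [59.6 to 102] from 56 UMIs and 91.8 CPM [73.6 to 113] from 88 UMIs. The endothelial level was thus 3.28 times [2.39 to 4.54] and 1.85 times [1.43 to 2.41] that of fibroblasts, and the intervals of the classes did not overlap in either library. Over the processing alternatives tried, the ratio ran between 1.12, in nuclei without markers of another class, and 6.42, with no mitochondrial limit, in library 1, and between 1.59 and 2.57 in library 2. All other classes were far lower. Pericyte and smooth muscle nuclei held 0 UMIs in library 1, which allows up to 19.2 CPM, and 8.70 CPM in library 2. Astrocytes were at 0.853 and 6.94 CPM, oligodendrocytes at 3.97 and 3.39 CPM and excitatory neurons at 0.726 and 1.37 CPM. The order was therefore endothelium, fibroblasts, then a group of glial, mural and neuronal classes whose intervals largely overlapped.

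A Cdh5 UMI was found in 40.1% and 36.3% of endothelial nuclei (median 2490 and 2620.5 UMIs), in 19.2% and 25.8% of fibroblasts (median 2950.5 and 3370 UMIs) and in 0.63% and 1.23% of excitatory neurons (median 7804.5 and 8361 UMIs). With every nucleus thinned to 1500 UMIs, the shares were 26.2% and 16.9% in endothelial nuclei, 10.2% and 12.1% in fibroblasts and 0.16% and 0.20% in excitatory neurons. This left 145 and 284 endothelial nuclei, 197 and 207 fibroblasts and 4469 and 4487 excitatory neurons, as shallower nuclei were left out. The fibroblast share was above the neuronal share at equal depth in both libraries. Summed endothelial markers were also higher in fibroblasts than in excitatory neurons, as given above, and their part in this difference was not tested. Of the Cdh5 UMIs in the nuclei kept, 57.9% and 49.2% lay in endothelial nuclei, which held 1.05% and 1.99% of the UMIs of all genes there. Endothelial nuclei held 147 and 189 of the 312 and 476 Cdh5 UMIs counted over all barcodes, those filtered out included.

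Cldn5 encodes claudin-5, the main claudin of the brain endothelial tight junction. Endothelial nuclei held 673 CPM [608 to 744] from 383 UMIs and 739 CPM [690 to 792] from 822 UMIs, against 36.6 CPM [23.9 to 53.6] and 55.3 CPM [41.4 to 72.3] in fibroblasts. The endothelial level was 18.4 times [12.4 to 28.5] and 13.4 times [10.1 to 18.0] that of fibroblasts. Over the alternatives the ratio ran between 11.6 and 188 in library 1 and between 8.02 and 44.1 in library 2, lowest with the Ranbp3l fibroblast cluster alone. A Cldn5 UMI was present in 59.9% and 70.3% of endothelial nuclei, and 71.5% and 56.9% of its UMIs in the nuclei kept lay there. Over all barcodes there were 688 and 1851 Cldn5 UMIs. In fibroblasts the share of nuclei was 4.04% and 11.5%, and in excitatory neurons 1.45% and 7.06%. Outside the vessel wall its level was higher in library 2 in every glial and neuronal class. Excitatory neurons held 1.76 and 8.0 CPM, inhibitory neurons 2.22 and 8.97 CPM, oligodendrocytes 3.41 and 24.6 CPM, and microglia 6.16 and 27.2 CPM. The intervals of the libraries were apart in astrocytes, oligodendrocytes, excitatory and inhibitory neurons, and overlapped in endothelial nuclei. Endothelial markers were also higher in the astrocytes and excitatory neurons of library 2, as given above, and their part in the Cldn5 values was not tested.

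Ocln encodes occludin, a tetraspan protein of tight junction strands. Its endothelial level was 301 CPM [257 to 349] and 224 CPM [197 to 254], against 39.4 CPM [26.2 to 57.0] and 33.4 CPM [22.8 to 47.1] in fibroblasts. The ratios were 7.63 [5.09 to 11.8] and 6.71 [4.63 to 10.0], and with no mitochondrial limit they were 14.7 and 20.7. No other compared class exceeded 8.70 CPM. Epithelial cells of the choroid plexus and ventricle wall, which also form junctions, were too few to enter the comparison, but 23 and 13 choroid plexus nuclei held 89.7 and 95.3 CPM of Ocln, from 10 and 7 UMIs. The 15 and 29 ependymal nuclei held 121 and 99.2 CPM, from 7 and 13 UMIs. Their intervals lay below that of endothelium in both libraries and above that of excitatory neurons, which held 4.92 and 4.68 CPM.

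Marveld2 encodes tricellulin, a relative of occludin at the corners where several cells meet. Only 6 and 12 UMIs lay in endothelial nuclei, giving 10.5 CPM [3.87 to 23.0] and 10.8 CPM [5.58 to 18.9]. Fibroblasts held 2.82 and 1.04 CPM from 2 UMIs and 1 UMI, and excitatory neurons 2.82 and 2.19 CPM from 109 and 91 UMIs. The ratio to fibroblasts was 3.75 [0.670 to 37.9] and 10.3 [1.53 to 442], so a difference was not detectable at this depth in library 1. Microglia of library 1, at 6.16 CPM from 3 UMIs, overlapped the endothelial interval, and the place of Marveld2 among the members highest in endothelium rests on these few UMIs.

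Esam encodes an adhesion molecule of the immunoglobulin family found at endothelial contacts and on platelets. Its endothelial level was 253 CPM [213 to 298] and 208 CPM [182 to 236], while fibroblasts stood at 14.1 and 10.4 CPM, from 10 UMIs in each library. Its ratios to fibroblasts, 18.0 [9.50 to 38.3] and 19.9 [10.6 to 42.1], had intervals that overlapped those of Cldn5 in both libraries, and with the Slc47a1 fibroblast cluster alone the ratio was 70.7 in library 1. Its next level was in pericyte and smooth muscle nuclei rather than fibroblasts, with 57.5 CPM [26.3 to 109] and 47.9 CPM [23.9 to 85.6] from 9 and 11 UMIs. Summed endothelial markers in those nuclei stood at 2.43% and 2.50% of the endothelial level, and their part in the Esam level was not tested. Excitatory neurons held 2.13 and 2.83 CPM.

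Jam2 encodes junctional adhesion molecule B, of the same family. Endothelial nuclei held 160 CPM [129 to 196] and 163 CPM [140 to 188], against 31.0 and 19.8 CPM in fibroblasts, with ratios of 5.16 [3.21 to 8.64] and 8.22 [5.11 to 14.0] that reached 20.7 and 18.1 with no mitochondrial limit. It was also present in several glial classes. Oligodendrocyte precursors held 56.6 and 61.2 CPM, astrocytes 43.5 and 53.2 CPM and microglia 24.6 and 33.0 CPM, while oligodendrocytes stood at 6.81 and 5.94 CPM. Precursors and astrocytes overlapped in both libraries, and both lay below endothelium and above oligodendrocytes. Excitatory neurons held 2.70 and 2.74 CPM. Of its UMIs in the nuclei kept, 21.7% and 34.3% were in endothelial nuclei.

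Tjp1 encodes ZO-1, the scaffold that links tight junction membrane proteins to actin, which neurons and glia also use at other contacts. Endothelial nuclei held 1322 CPM [1229 to 1420] and 1771 CPM [1694 to 1851]. Fibroblasts held 698 and 721 CPM, astrocytes 752 and 750 CPM and excitatory neurons 550 and 541 CPM. The ratio to fibroblasts was 1.89 [1.69 to 2.12] and 2.46 [2.25 to 2.68], and fibroblasts and astrocytes did not differ beyond their intervals. With no mitochondrial limit the ratios were 4.53 and 5.93. Oligodendrocytes differed by library, at 275 CPM [251 to 301] in library 1 and 664 CPM [619 to 713] in library 2. The endothelial intervals of Tjp1 given above were also apart between the libraries. So were the endothelial intervals of Cdh5 and Ocln, whose levels were lower in library 2. A Tjp1 UMI was found in 90.4% and 93.7% of endothelial nuclei and in 94.6% and 94.8% of excitatory neurons. At 1500 UMIs per nucleus the shares were 80.0% and 85.6% of endothelial nuclei and 53.8% and 52.7% of excitatory neurons. Of the Tjp1 UMIs in the nuclei kept, 2.62% and 6.34% lay in endothelial nuclei and 73.9% and 72.5% in excitatory neurons, which held 71.5% and 74.4% of the UMIs of all genes there.

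Afdn encodes afadin, which ties nectins to actin. It was the exception among the members, with an endothelial level of 359 CPM [311 to 411] and 333 CPM [300 to 368], against 428 CPM [381 to 479] and 445 CPM [404 to 490] in fibroblasts. The ratio was 0.838 [0.698 to 1.00] and 0.747 [0.648 to 0.861], so the fibroblast level was the higher beyond counting error in library 2 alone. Highest in fibroblasts in both libraries held for 6.50% of all genes. The remaining classes lay well below both, with 179 and 176 CPM in inhibitory neurons, 176 and 168 CPM in excitatory neurons and 117 and 125 CPM in astrocytes.

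Ctnna1 encodes alpha-E-catenin, which couples cadherin complexes to actin. Endothelial nuclei held 294 CPM [251 to 342] and 286 CPM [255 to 319], against 187 CPM [157 to 222] and 227 CPM [198 to 260] in fibroblasts. Its ratios, 1.57 [1.24 to 1.98] and 1.26 [1.06 to 1.502], were low among the members that were higher in endothelium. Pericyte and smooth muscle nuclei followed with 115 and 148 CPM, then astrocytes with 80.2 and 104 CPM, and excitatory neurons held 17.5 and 28.0 CPM. In choroid plexus nuclei the level was 171 and 231 CPM.

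Fibroblast levels were next expressed as a percentage of the endothelial level, for members and for the 11 endothelial markers. Markers other than Abcb1a, at 21.1% and 24.5%, lay between 0% and 8.84%. Cldn5, at 5.44% and 7.48%, and Esam, at 5.56% and 5.02%, lay in that range. Egfl7 gave the values of 0%, with 0 UMIs in fibroblasts of both libraries. Its endothelial level was 5.27 and 28.8 CPM, its intervals reached 194% and 14.2%, and it could not be placed in library 1. Cdh5 stood at 30.5% and 54.0%, Ocln at 13.1% and 14.9%, Jam2 at 19.4% and 12.2%, Marveld2 at 26.7% and 9.66%, Tjp1 at 52.8% and 40.7%, and Ctnna1 at 63.8% and 79.5%. The values of Cdh5, Tjp1 and Ctnna1 were above those of all 11 markers in both libraries. In library 1, however, the interval of Cdh5, 22.0% to 41.8%, overlapped that of Abcb1a, 17.4% to 25.5%. The interval of Egfl7 in library 1 overlapped those of Cdh5, Tjp1 and Ctnna1. The values of Ocln and Jam2 lay between those of Abcb1a and the other markers in both libraries, but their intervals did not set them apart. In library 1 the interval of Jam2, 11.6% to 31.1%, contained that of Abcb1a. The Ocln interval, 8.46% to 19.6%, overlapped those of Abcb1a and of Pecam1, 6.01% to 12.6%. In library 2 Ocln, at 9.97% to 21.6%, overlapped Abcb1a, at 21.3% to 28.1%, and Jam2, at 7.16% to 19.6%, overlapped Pecam1, at 4.39% to 9.92%. Marveld2, with intervals of 2.64% to 149% and 0.226% to 65.3%, could not be placed.

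**Figure D2:**
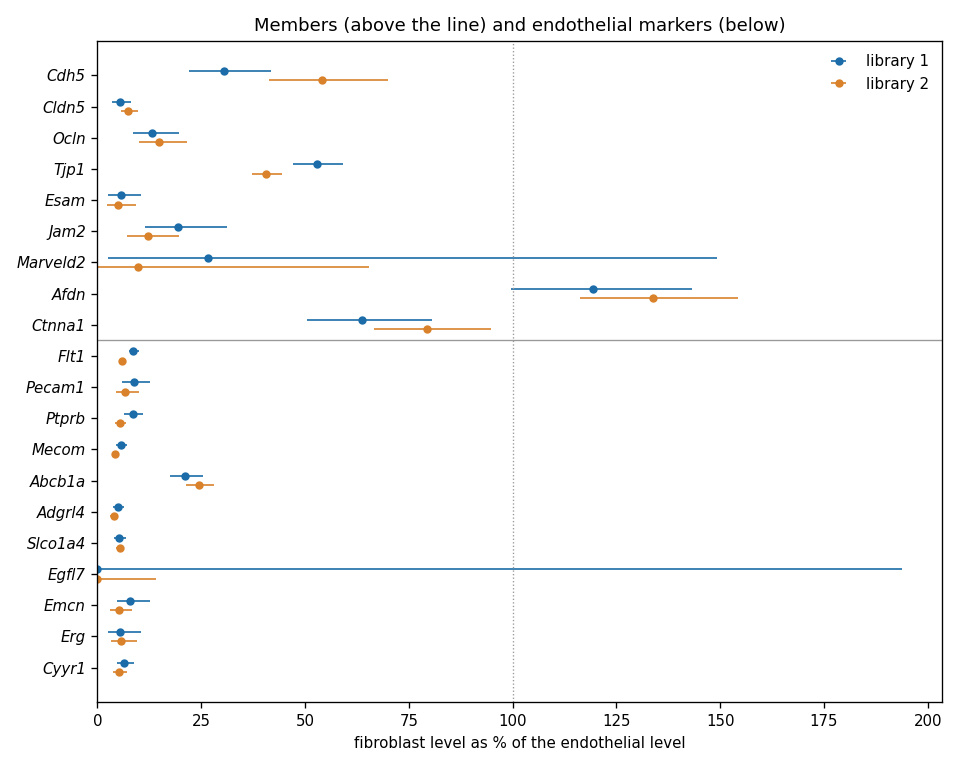
Fibroblast level as a percentage of the endothelial level (x axis, linear), for the 9 members above the line and 11 endothelial markers below it, with 95% intervals of counting error and a dotted line at equal levels. Cldn5 and Esam lay among the markers, Cdh5 at 30.5% and 54.0% lay to their right, and Afdn lay past equality at 119% and 134%.

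Nuclei that held no marker UMI of the other class were examined in the same way. There were 61 and 84 endothelial nuclei with no fibroblast, pericyte or smooth muscle marker, and 74 and 67 fibroblasts with no endothelial marker. In these, the endothelial level of Cdh5 was 94.3 CPM [50.2 to 161] and 154 CPM [108 to 213], and its fibroblast level was 84.5 CPM [50.1 to 134] and 59.8 CPM [32.7 to 100], from 18 and 14 UMIs. The intervals of the classes overlapped in library 1 and not in library 2. Cldn5 was at 196 and 380 CPM in those endothelial nuclei and at 0 and 21.3 CPM in those fibroblasts, from 0 and 5 UMIs. The 11 endothelial markers included Abcb1a, which fibroblasts held at 21.1% and 24.5% of the endothelial level. Fibroblasts with no endothelial marker UMI were thus also selected for having no Abcb1a UMI. Among fibroblasts with a Cdh5 UMI, 16 of 38 and 12 of 54 had no endothelial marker UMI. These shares, 42.1% and 22.2%, compare with 36.25% and 35.5% of fibroblasts without Cdh5. Fibroblasts with Cdh5 held a median of 1 and 2 marker UMIs, against 1 in those without it in each library. Their depth was greater, at medians of 3327 and 3849.5 UMIs against 2887 and 3252, and its part was not tested. Among fibroblasts with a Cldn5 UMI, 0 of 8 and 4 of 24 had no endothelial marker UMI, against 38.9% and 34.1% without Cldn5. Fibroblasts with an Esam UMI, 6 and 10 in number, held a median of 64 and 31 endothelial marker UMIs, against 1 in fibroblasts without it in each library. They were also deeper, with medians of 10695 and 4692 UMIs against 2937.5 and 3368, and the part of depth was not tested. The endothelial levels of Cdh5, Cldn5 and Esam were also lower in the nuclei selected in this way than in all endothelial nuclei. The selected nuclei held 137804 and 234299 UMIs, against 568827 and 1111810 in all 157 and 300 endothelial nuclei. Summed pericyte markers were at 2745 and 2545 CPM in the capillary and venous endothelial cluster described below. In the arterial cluster they were at 76.0 and 208 CPM, so the selection bore unequally on the clusters. The part of depth and of cluster in these levels was not tested.

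Fibroblasts formed 2 clusters. One, with 91 and 100 nuclei, had Bnc2 as its first gene by rank and is called here after another of its top genes, Slc47a1, which encodes an organic cation exporter. It had Slc47a1 at 1002 and 1007 CPM and Dpp4 at 455 and 310 CPM. The other, with 107 and 109 nuclei, was marked by Ranbp3l. The clusters differed in how much endothelial and pericyte marker RNA they held. Summed endothelial markers other than Abcb1a were at 0.401% and 0.555% of the endothelial level in the Slc47a1 cluster, from 14 and 39 UMIs with 2 and 3 of 10 markers at 0, and at 11.2% and 9.47% in the Ranbp3l cluster. Over all 11 markers, Abcb1a included, they were at 2.94% and 3.08% in the Slc47a1 cluster and at 11.1% and 9.58% in the Ranbp3l cluster. Summed pericyte markers were at 2.29% and 5.51% of the endothelial level in the Slc47a1 cluster and at 21.3% and 48.1% in the Ranbp3l cluster. Endothelial nuclei themselves held pericyte markers at 48.2% and 41.1% of the level in pericyte and smooth muscle nuclei. In CPM, the sums were 57.3 and 117 in the Slc47a1 cluster and 531 and 1020 in the Ranbp3l cluster. Pericyte and smooth muscle nuclei held 5179 and 5161 CPM. Over all fibroblasts, summed astrocyte markers were at 29.2% and 36.2% of the astrocyte level. Endothelial markers there were at 7.92% and 6.39% of the endothelial level. The part of astrocyte marker RNA in the fibroblast values was not tested.

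Cdh5 was present in both clusters. The Slc47a1 cluster held 50.1 and 97.7 CPM from 14 and 46 UMIs, and the Ranbp3l cluster 97.5 and 86.0 CPM from 42 UMIs in each library. The ratio between the clusters, 0.514 [0.259 to 0.960] and 1.14 [0.731 to 1.77], went in different directions in the libraries, and that of library 2 included equality. Of the 110 and 232 endothelial marker UMIs of the Slc47a1 cluster, 14 and 39 came from markers other than Abcb1a. In the Slc47a1 nuclei with no endothelial marker UMI, 32 and 26 in number, Cdh5 was at 92.1 and 105 CPM, from 8 and 9 UMIs. In such nuclei of the Ranbp3l cluster, 42 and 41 in number, Cdh5 was at 79.3 and 33.8 CPM, from 10 and 5 UMIs. Cldn5 behaved otherwise, with 3.58 and 17.0 CPM in the Slc47a1 cluster and 58.02 and 92.2 CPM in the Ranbp3l cluster. In library 1 the 25 Cldn5 UMIs of the Ranbp3l cluster lay in 7 of its 107 nuclei, which had medians of 9486 UMIs and 53 endothelial marker UMIs, against 3045.5 and 1 in its nuclei without Cldn5. In library 2 its 45 UMIs lay in 16 of 109 nuclei, with medians of 4799.5 UMIs and 3 marker UMIs, against 3168 and 1. Jam2 was likewise lower in the Slc47a1 cluster, at 10.7 and 8.50 CPM against 44.1 and 30.7 CPM. These levels came from 3 and 4 UMIs against 19 and 15. In nuclei with no endothelial marker UMI, Jam2 was at 34.5 and 11.6 CPM against 47.6 and 6.75 CPM. There the order differed between the libraries, with 3 UMIs and 1 UMI against 6 UMIs and 1 UMI. Esam, at 3.58 and 6.37 CPM against 20.9 and 14.3 CPM, rested on at most 9 UMIs in a cluster. Ocln did not differ beyond counting error between the clusters, at 46.5 and 27.6 CPM against 34.8 and 38.9 CPM, nor did Afdn, at 455 and 465 CPM against 411 and 426 CPM. Tjp1 was at 834 and 727 CPM in the Slc47a1 cluster and at 610 and 715 CPM in the Ranbp3l cluster, with ratios of 1.37 [1.14 to 1.64] and 1.02 [0.873 to 1.18]. The part of the endothelial and pericyte marker RNA in the Ranbp3l values was not tested.

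Other junction genes set the Slc47a1 cluster apart, and those named here were chosen after their values were seen. Cdh1, which encodes E-cadherin, was at 261 and 244 CPM in the Slc47a1 cluster and at 41.8 and 14.3 CPM in the Ranbp3l cluster. It had no UMI in endothelial nuclei of library 1 and 0.899 CPM in library 2. Cldn11, a claudin of myelin and barrier cells, was at 215 and 238 CPM in the Slc47a1 cluster and at 37.1 and 57.4 CPM in the Ranbp3l cluster. Cxadr, a tight junction adhesion protein and virus receptor, was at 440 and 427 CPM against 144 and 141 CPM.

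At a finer clustering, Leiden resolution 2, the Slc47a1 nuclei divided further. A cluster led by Dpp4, with 23 and 19 nuclei, held Tjp1 at 2290.5 and 2752 CPM, above the endothelial level in both libraries. It held Cdh1 at 562 and 414 CPM, Ocln at 110 and 107 CPM from 8 UMIs in each library, and Cdh5 at 68.6 and 147 CPM from 5 and 11 UMIs. Cldn5 was at 0 and 13.4 CPM there. A cluster led by Bnc2, with 68 and 81 nuclei, held Tjp1 at 320 and 343 CPM, Cdh1 at 155 and 212 CPM and Cdh5 at 43.6 and 88.4 CPM. The fibroblast class at this resolution held 175 and 190 nuclei, fewer by the 23 and 19 nuclei of the Dpp4 cluster, and its Tjp1 level was 516 and 549 CPM, against 698 and 721 CPM with them. These clusters were singled out after their values were seen, and no cell type is assigned to them.

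The endothelial nuclei also formed 2 clusters, an arterial one of 18 and 63 nuclei and a capillary and venous one of 139 and 237 nuclei. The arterial marker Bmx was at 247 and 1266 CPM in the arterial cluster and at 31.0 and 46.1 CPM in the capillary and venous cluster, and Mfsd2a, a capillary lipid transporter, was at 0 and 4.96 CPM against 89.1 and 109 CPM. Tjp1 was lower in the arterial cluster, at 589 and 1087 CPM against 1397 and 1922 CPM, with ratios of 0.422 [0.284 to 0.604] and 0.565 [0.489 to 0.651]. Cldn5 was also lower there, at 209 and 566 CPM against 721 and 778 CPM, with ratios of 0.290 [0.143 to 0.525] and 0.728 [0.592 to 0.888]. For Tjp1 and Cldn5 the interval lay below equality in both libraries. Summed endothelial markers in the arterial cluster stood at 62.9% and 88.7% of the level of all endothelial nuclei, and their part was not tested.

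Jam2 was at 94.98 and 94.3 CPM in the arterial cluster and at 167 and 178 CPM in the capillary and venous cluster, with a ratio of 0.530 [0.311 to 0.855] in library 2 and an interval that included equality in library 1. Esam had 0 UMIs in the arterial cluster of library 1, which allows up to 57.0 CPM, and 159 CPM in library 2, against 279 and 219 CPM in the capillary and venous cluster. Cdh5, at 190 and 189 CPM against 265 and 166 CPM, did not differ beyond counting error, nor did Ocln, at 342 and 233 CPM against 296 and 222 CPM. Afdn stood at 285 and 263 CPM against 366 and 348 CPM, and Ctnna1 at 209 and 238 CPM against 302 and 297 CPM, with intervals that included equality. The pericyte marker Rgs5, which encodes a regulator of G-protein signalling, was at 76.0 and 129 CPM in the arterial cluster and at 1988 and 1412 CPM in the capillary and venous cluster, and its part in these differences was not tested.

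**Figure D3:**
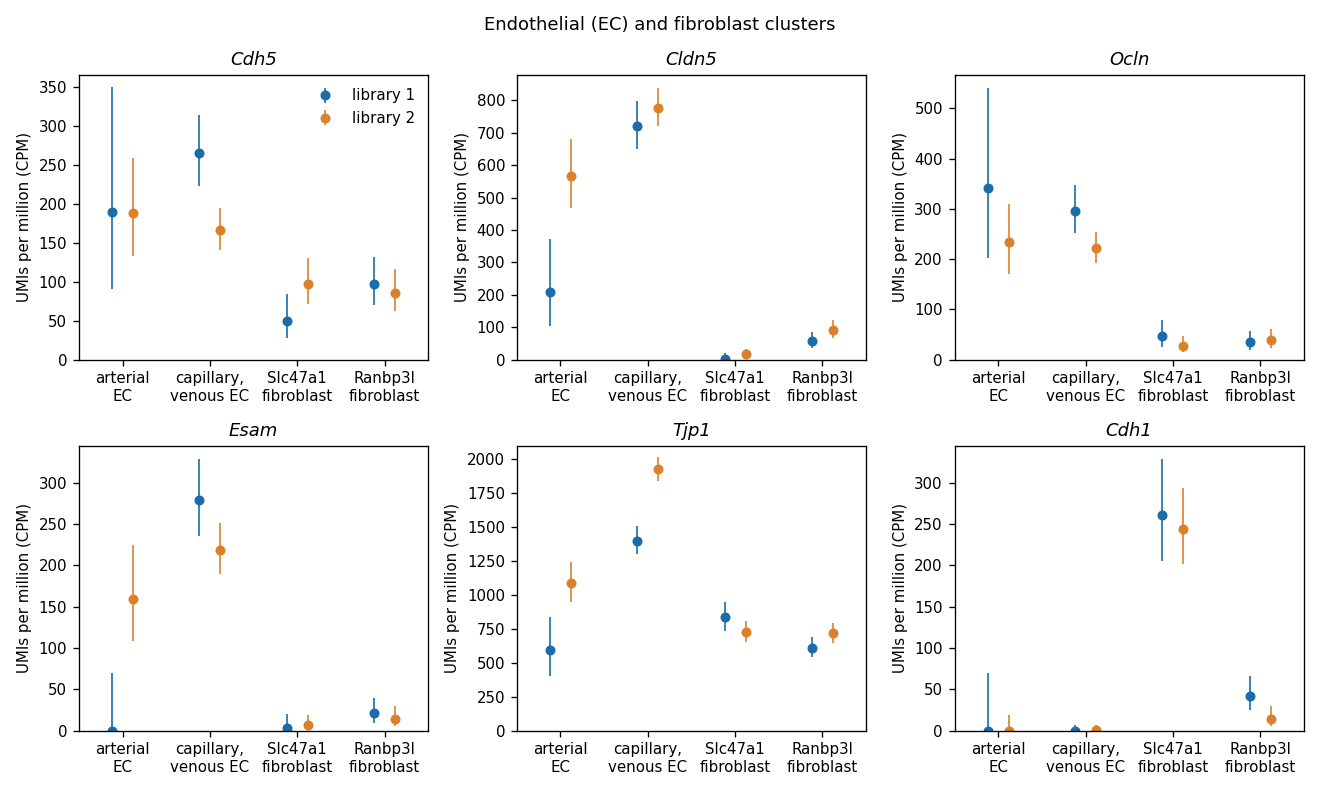
Level (UMIs per 1000000 UMIs of the cluster) of Cdh5, Cldn5, Ocln, Esam, Tjp1 and Cdh1 in the arterial and the capillary and venous endothelial (EC) clusters and in the Slc47a1 and Ranbp3l fibroblast clusters, for each library with 95% Poisson intervals. Tjp1 and Cldn5 were lower in the arterial cluster, Cdh5 was present in all 4 clusters, and Cdh1 was highest of the clusters shown in the Slc47a1 cluster.

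The number of members with a UMI was then counted in each nucleus after thinning to 1500 UMIs. The mean was 3.01 and 2.86 members in endothelial nuclei, against 1.41 and 1.43 in fibroblasts, 0.970 and 1.05 in astrocytes and 0.815 and 0.816 in excitatory neurons. At least 3 members were found in 93 of 145 and 170 of 284 endothelial nuclei, which is 64.1% and 59.9%. In fibroblasts the share was 10.2% and 14.5%, in astrocytes 3.505% and 4.95% and in excitatory neurons 0.470% and 0.914%. The most members in any endothelial nucleus was 6 in library 1 and 7 in library 2. Among unthinned endothelial nuclei with a Cdh5 UMI, 77.8% and 78.0% also had a Cldn5 UMI, against 47.9% and 66.0% of those without one. Nuclei with Cdh5 were deeper, with medians of 3853 and 3437 UMIs against 2107 and 2440, and the part of depth in this difference was not tested.

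**Figure D4:**
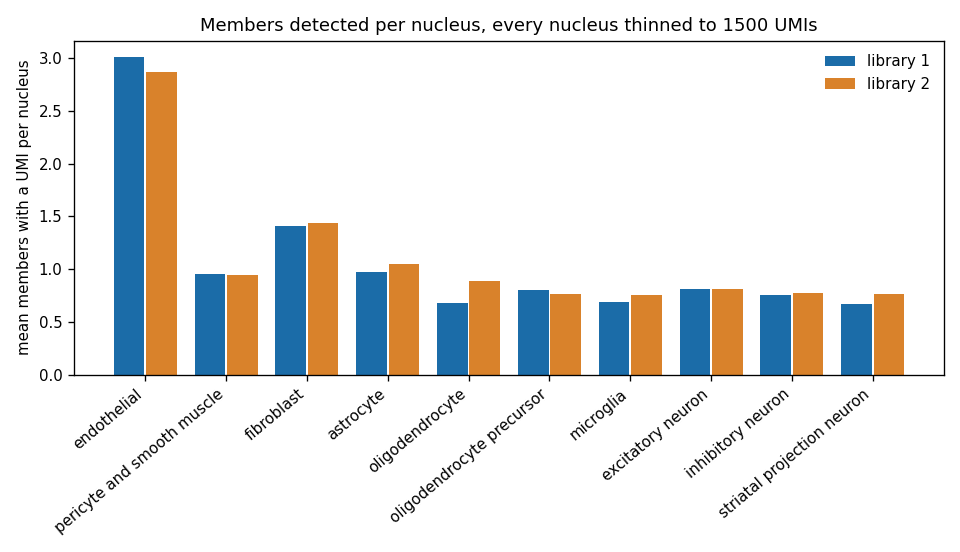
Mean number of the 9 members with at least 1 UMI per nucleus (y axis) in each compared class and library, with every nucleus thinned to 1500 UMIs. Endothelial nuclei stood at 3.01 and 2.86, fibroblasts at 1.41 and 1.43, and the other classes near 1 or below.

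A list of 60 other junction genes was set beside the members, and 55 of them were measured, 29 of 34 tight junction and all 26 adherens junction genes. Of these 55, 14 were highest in endothelial nuclei in both libraries, 6 tight and 8 adherens junction genes, against the 6.18% of all genes given above. By size, 15 of the 55, 8 tight and 7 adherens, were at least 2-fold above the mean of the other classes in both libraries, against the 6.21% of all genes. At least 2-fold lower in both libraries were 9, against 8.05% of all genes, and none of the members was. The median log2 ratio was -0.51 and -0.12 over the tight junction list and 0.54 and 0.33 over the adherens junction list. The other junction genes lay on both sides of equality. The members and lists were chosen with earlier results of these data known, so the contrast between them is a description and not a test.

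The 6 with the highest endothelial level among those highest in endothelium were Ptprm, Magi3, Arhgap29, Cgnl1, Ctnnb1 and Shroom4. Ptprm, a receptor phosphatase that binds cadherin complexes, was at 2053 and 2930 CPM in endothelial nuclei. Magi3, a membrane-associated scaffold, was at 366 and 456 CPM, and Ctnnb1, which encodes beta-catenin, at 369 and 218 CPM. Cgnl1, which encodes paracingulin, was at 207 and 324 CPM in endothelial nuclei, against 172 and 164 CPM in fibroblasts. Arhgap29 was at 320 and 345 CPM in endothelial nuclei, against 262 and 239 CPM in pericyte and smooth muscle nuclei, and fibroblasts held 313 and 265 CPM. Shroom4, an actin-binding protein, was at 172 and 240 CPM. Arhgap29 was thus nearly level across the vascular and meningeal classes in library 1.

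The 4 with the highest level in another class were Magi2, Ctnna2, Ctnna3 and Pdlim5. Magi2, a scaffold also found at synapses, was at 805 and 816 CPM in endothelial nuclei, against 6384 and 5832 CPM in oligodendrocytes. Ctnna2, the neural alpha-catenin, was at 577 and 631 CPM in endothelial nuclei, against 2489 and 3045 CPM in oligodendrocyte precursors. Ctnna3, a further alpha-catenin, was at 167 and 192 CPM in endothelial nuclei, against 1258 and 1553 CPM in pericyte and smooth muscle nuclei and 1280 and 1336 CPM in oligodendrocytes. Of the 3 alpha-catenin genes, only Ctnna1 had its highest level in endothelium. Pdlim5, which binds actin-associated proteins, was at 408 and 423 CPM in endothelial nuclei, against 709 and 1179 CPM in pericyte and smooth muscle nuclei.

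**Figure D5:**
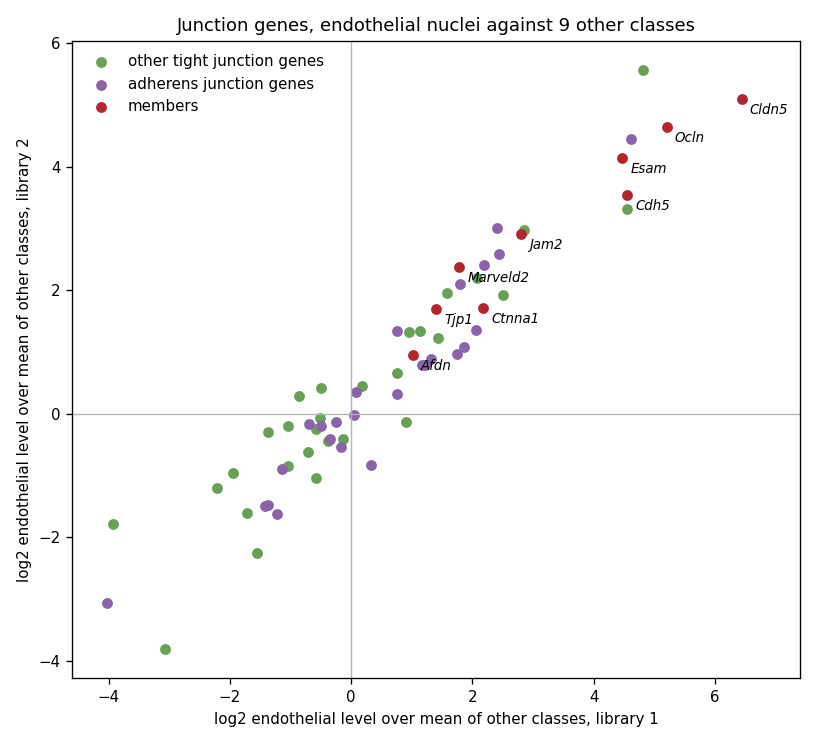
Log2 ratio of the endothelial level to the mean of the other 9 classes (1 CPM added), library 1 on the x axis and library 2 on the y axis, for the members and the measured genes of the tight and adherens junction lists. The members lay between 0.95 and 6.44, and the other genes on both sides of 0.

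For each member the genes with the most similar pattern were taken from 16647 others by Pearson r of log2 levels over 20 points, the 10 classes in each of 2 libraries. The points share libraries and depth, so r is a description. Cdh5 was closest to Nos3 (r = 0.951), which encodes endothelial nitric oxide synthase, Cyyr1 (0.950) and the VEGF receptor gene Kdr (0.935). Cldn5 was closest to the endothelial phosphatase gene Ptprb (0.948), Kdr (0.947) and the angiopoietin receptor gene Tek (0.939). Esam was closest to Rgs5 (0.973), Apold1 (0.956) and Emcn (0.953), and Ocln to Tead4 (0.950), 4930578C19Rik (0.942) and Adgrl4 (0.941). Of these, Cyyr1, Ptprb, Emcn and Adgrl4 were among the markers used to name the endothelial class, and Rgs5 was a pericyte marker. Their r is therefore not independent of the naming of classes.

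The members present in many classes had other neighbours. Tjp1 was closest to the Wnt receptor gene Fzd4 (0.888), Pggt1b (0.882) and AC124555.1 (0.871). Jam2 was closest to Erap1 (0.904), Klhl5 (0.859) and Mfsd2a (0.849). Ctnna1 was closest to Id3 (0.939), Ahnak (0.932) and the laminin gene Lamb2 (0.927). Afdn was closest to Tcte2 (0.904), with which it shares bases as stated above, Itih2 (0.901) and Crybg1 (0.898). Marveld2, with few UMIs outside neurons, was closest to Alas1 (0.891), Pwwp2b (0.835) and Mannr (0.813). Among the members themselves, r between Cdh5 and Ocln was 0.910 and that between Cdh5 and Cldn5 was 0.898, while that between Cdh5 and Jam2 was 0.490.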

How the data were processed

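The authors deposited whole-number UMI counts per gene and barcode, in 1 matrix for both samples. The submitters' processing notes name Cell Ranger 2.0.1, Seurat 3.1, R 4.0.2 and mm10, and the file header names Cell Ranger 3.1.0. For intron counting, strand use and annotation, the choice is not given in the sources used here.

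From the deposited counts, nuclei with at least 200 genes, at most 5% mitochondrial UMIs and a Scrublet doublet score under 0.2 were kept (scanpy 1.11.5, Python 3.11.15). The automatic doublet threshold marked 0 and 2 nuclei, so the fixed limit was used, and it marked 305 and 332. Counts were scaled to 10000 per nucleus and logged, 2000 variable genes without junction genes gave 30 components, and Leiden clusters (15 neighbours, resolution 1, leidenalg 0.10.2) were named from marker lists. Clusters that met no naming rule stayed unnamed (540 and 712 nuclei), and classes with under 50 nuclei in a library were not compared. UMIs were summed per class and library and divided by the class total. Intervals are exact Poisson for levels and exact conditional binomial for ratios, at 95%, and cover counting error only. A count of 0 allows up to 3 counts.

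The text names all 9 members, the 6 other junction genes highest in endothelium, the 4 highest elsewhere, the 3 genes most like each member (at least 50 UMIs) and class markers. The members and lists were chosen with earlier results of these data known. No test was run, since the matrix is 1 sample. Scripts were tested on simulated data. Alternatives changed doublet, mitochondrial and clustering limits, weighting, thinning, scaling (including TMM factors, edgeR 4.0.16, R 4.3.3), added CPM and the clusters included.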

Additional observations from a re-analysis of the deposited data

How the results depend on the processing

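Of 943 values recomputed for 76 results under 15 alternatives, 740 stayed within the counting interval or within 1.5 times the main count. The other 203 moved further. A change of direction was looked for only in ratios whose main interval excluded equality, and not in levels or counts. None of those ratios changed direction. The count of members highest in endothelial nuclei was 8 in each library under every alternative that gave it a value. Ratios are endothelial levels over those of the class named, and each log2 ratio has 1 CPM added unless stated. TMM factors shifted the median log2 ratio over all genes by -0.15 in library 1 and -0.13 in library 2. A mitochondrial limit of 1% left no endothelial class, so that alternative gave no value. With no mitochondrial limit, 79 and 86 fibroblast nuclei kept the name, against 198 and 209, and the cause of its changes was not tested. That setting compared 9 classes, without oligodendrocyte precursors, and the setting with doublets kept compared 9, without microglia. In both, the mean of the other classes was therefore taken over a different set of classes. No paired analysis was possible because the matrix is 1 sample and no test was run, and each ratio between classes was taken within a library. Depth limits Marveld2 most, with at most 12 UMIs in endothelial nuclei of a library. With equal weight for every nucleus, the endothelial level was 190.1 CPM for Cdh5, 506 for Cldn5 and 197 for Esam in library 1. Library 1 then gave the fibroblast level as 13.7 CPM for Cldn5, 6.29 for Esam and 155 for Ctnna1. The log2 ratio to the other classes in library 1 was 3.99 for Esam. For library 1 the ratio to fibroblasts came to 36.8 for Cldn5. In library 2, the endothelial level was 619.7 CPM for Cldn5, 1673 for Tjp1, 169 for Esam and 244 for Ctnna1. It left the fibroblast level at 38.3 CPM for Cldn5 in library 2. There was a log2 ratio to the other classes of 4.92 for Cldn5, 3.76 for Esam and 1.52 for Ctnna1 in library 2. With nuclei thinned to 1500 UMIs, the endothelial level was 216 CPM for Cdh5, 566 for Cldn5 and 189 for Esam in library 1. Under it the fibroblast level of library 1 became 23.7 CPM for Cldn5 and 152 for Ctnna1. That setting put the endothelial level at 138 CPM for Cdh5, 657 for Cldn5, 185 for Ocln, 157 for Esam, 282 for Afdn and 246 for Ctnna1 in library 2. Values of the fibroblast level were 38.6 CPM for Cldn5, 19.3 for Ocln, 660.2 for Tjp1, 9.66 for Jam2 and 0 for Marveld2 in library 2. Library 2 then gave the log2 ratio to the other classes as 4.99 for Cldn5, 4.44 for Ocln, 3.86 for Esam, 0.73 for Afdn and 1.53 for Ctnna1. The ratio to fibroblasts in library 2 was 15.1 for Jam2. With TMM factors, the endothelial level was 211 CPM for Cdh5, 549 for Cldn5, 245 for Ocln, 1079 for Tjp1, 207 for Esam, 293 for Afdn and 239.6 for Ctnna1 in library 1. For library 1 the fibroblast level came to 549 CPM for Tjp1, 336 for Afdn and 147 for Ctnna1. In library 1, the log2 ratio to the other classes was 1.13 for Tjp1 and 0.78 for Afdn. It left the endothelial level at 1656 CPM for Tjp1 in library 2. There was a fibroblast level of 647 CPM for Tjp1 and 399.7 for Afdn in library 2. Under it the log2 ratio to the other classes of library 2 became 1.4999 for Tjp1 and 0.77 for Afdn. In nuclei without markers of another class, the endothelial level was 94.3 CPM for Cdh5, 196 for Cldn5, 1038 for Tjp1, 94.3 for Esam, 305 for Afdn and 210.4 for Ctnna1 in library 1. That setting put the fibroblast level at 0 CPM for Cldn5, 4.69 for Esam, 0 for Marveld2, 375 for Afdn and 155 for Ctnna1 in library 1. Values of the log2 ratio to the other classes were 3.05 for Cdh5, 5.72 for Cldn5, 1.09 for Tjp1, 3.58 for Esam and 1.69 for Ctnna1 in library 1. Library 1 then gave the ratio to fibroblasts as 1.12 for Cdh5 and 1.57 for Tjp1. Of the other junction genes, 11 were then highest in endothelial nuclei in library 1, against 17 over all nuclei. The endothelial level in library 2 was 379.9 CPM for Cldn5, 166 for Ocln, 1630.4 for Tjp1, 111 for Esam, 128 for Jam2, 4.27 for Marveld2, 299 for Afdn and 213 for Ctnna1. For library 2 the fibroblast level came to 59.8 CPM for Cdh5, 21.3 for Cldn5, 21.3 for Ocln, 534 for Tjp1, 4.27 for Esam, 8.54 for Jam2, 0 for Marveld2, 363 for Afdn and 145 for Ctnna1. In library 2, the log2 ratio to the other classes was 3.80 for Cdh5, 4.51 for Cldn5, 3.54 for Esam, 2.61 for Jam2, 1.02 for Marveld2 and 1.39 for Ctnna1. It left the ratio to fibroblasts at 2.57 for Cdh5, 3.06 for Tjp1 and 14.997 for Jam2 in library 2. With no mitochondrial limit, the fibroblast level was 42.3 CPM for Cdh5, 4.23 for Cldn5, 21.2 for Ocln, 301 for Tjp1, 4.23 for Esam and 8.47 for Jam2 in library 1. There was a log2 ratio to the other classes of 5.19 for Cdh5, 7.34 for Cldn5, 5.45 for Ocln, 1.52 for Tjp1, 4.14 for Esam and 3.47 for Jam2 in library 1. Under it the ratio to fibroblasts of library 1 became 6.42 for Cdh5, 175 for Cldn5, 14.7 for Ocln, 4.53 for Tjp1, 57.3 for Esam and 20.7 for Jam2. That setting put the endothelial level at 817 CPM for Cldn5 and 1936 for Tjp1 in library 2. Values of the fibroblast level were 18.5 CPM for Cldn5, 11.6 for Ocln, 326 for Tjp1, 2.31 for Esam, 9.26 for Jam2 and 0 for Marveld2 in library 2. Library 2 then gave the log2 ratio to the other classes as 5.47 for Cldn5, 5.03 for Ocln, 1.91 for Tjp1 and 3.46 for Jam2. The ratio to fibroblasts in library 2 was 44.1 for Cldn5, 20.7 for Ocln, 5.93 for Tjp1, 96.9 for Esam and 18.1 for Jam2. With 5 CPM added in place of 1, the log2 ratio to the other classes was 4.13 for Cdh5, 5.85 for Cldn5, 4.65 for Ocln and 4.06 for Esam in library 1. For library 2 the log2 ratio to the other classes came to 3.22 for Cdh5, 4.87 for Cldn5, 4.14 for Ocln, 3.76 for Esam and 1.33 for Marveld2. With the Slc47a1 cluster alone as fibroblasts, an alternative added after seeing the data, the fibroblast level was 50.1 CPM for Cdh5, 3.58 for Cldn5, 834 for Tjp1, 3.58 for Esam and 10.7 for Jam2 in library 1. In library 1, the log2 ratio to the other classes was 5.05 for Cdh5 and 7.36 for Cldn5. It left the ratio to fibroblasts at 5.16 for Cdh5, 188 for Cldn5, 1.59 for Tjp1, 70.7 for Esam and 14.9 for Jam2 in library 1. There was a fibroblast level of 17.0 CPM for Cldn5, 8.50 for Jam2 and 0 for Marveld2 in library 2. Under it the log2 ratio to the other classes of library 2 became 5.42 for Cldn5. That setting put the ratio to fibroblasts at 43.5 for Cldn5 and 19.2 for Jam2 in library 2. With the Ranbp3l cluster alone as fibroblasts, also added after seeing the data, the fibroblast level was 58.02 CPM for Cldn5 and 610.4 for Tjp1 in library 1. Values of the log2 ratio to the other classes were 4.31 for Cdh5 and 6.05 for Cldn5 in library 1. Library 1 then gave the ratio to fibroblasts as 11.6 for Cldn5 and 2.17 for Tjp1. The fibroblast level in library 2 was 92.2 CPM for Cldn5. For library 2 the log2 ratio to the other classes came to 4.85 for Cldn5. In library 2, the ratio to fibroblasts was 8.02 for Cldn5. With doublets kept, the endothelial level was 583 CPM for Cldn5 and 1224 for Tjp1 in library 1. It left the log2 ratio to the other classes at 1.23 for Tjp1 in library 1. There was an endothelial level of 642 CPM for Cldn5, 1615 for Tjp1, 179 for Esam and 251 for Ctnna1 in library 2. Under it the fibroblast level of library 2 became 392 CPM for Afdn and 189.7 for Ctnna1. That setting put the log2 ratio to the other classes at 1.52 for Tjp1 and 3.12 for Jam2 in library 2. With a doublet score limit of 0.1, the endothelial level was 756 CPM for Cldn5 and 1429.7 for Tjp1 in library 1. Values of the fibroblast level were 22.4 CPM for Cldn5 in library 1. Library 1 then gave the log2 ratio to the other classes as 6.88 for Cldn5 and 1.51 for Tjp1. The ratio to fibroblasts in library 1 was 33.7 for Cldn5. For library 2 the endothelial level came to 798 CPM for Cldn5 and 1867 for Tjp1. In library 2, the fibroblast level was 41.1 CPM for Cldn5 and 0 for Marveld2. It left the log2 ratio to the other classes at 5.27 for Cldn5 and 1.79 for Tjp1 in library 2. There was a ratio to fibroblasts of 19.4 for Cldn5 in library 2. With 0.1 CPM added, the log2 ratio to the other classes was 6.62 for Cldn5 in library 1. At Leiden resolution 2, the fibroblast level was 516 CPM for Tjp1 in library 1. Under it the ratio to fibroblasts of library 1 became 2.53 for Tjp1. That setting put the fibroblast level at 549 CPM for Tjp1 in library 2. Values of the log2 ratio to the other classes were 1.77 for Tjp1 in library 2. Library 2 then gave the ratio to fibroblasts as 3.23 for Tjp1. Without the arterial cluster, added after seeing the data, the endothelial level was 1922 CPM for Tjp1 in library 2. The log2 ratio to the other classes in library 2 was 1.82 for Tjp1.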

Other observations

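Values of members within neuron and glia clusters are given here, in clusters chosen after their values were seen. Among excitatory neurons, the cluster led by Glis3 and Prox1, a transcription factor of dentate granule cells, held Ocln at 20.2 CPM [15.1 to 26.4] and 25.1 CPM [19.3 to 32.2] in its 356 and 206 nuclei. The other excitatory clusters held at most 7.04 and 10.2 CPM of Ocln, so the level of this cluster was the highest of the excitatory clusters in both libraries. Among inhibitory neurons, the cluster led by Adarb2 and Vip, the gene of vasoactive intestinal peptide, held Jam2 at 31.2 CPM [23.7 to 40.2] and 23.6 CPM [16.4 to 32.8] in 257 and 212 nuclei. The other inhibitory clusters held 2.98 and 3.101 CPM of Jam2 in library 1 and 2.35 and 6.70 CPM in library 2.

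At Leiden resolution 2, oligodendrocytes formed a cluster led by Prr5l, with 854 and 45 nuclei, and another led by Rnf220, with 41 and 376 nuclei, so each lay mostly in a different library. Tjp1 was at 267 and 379 CPM in the Prr5l cluster and at 424 and 696 CPM in the Rnf220 cluster. In both clusters Tjp1 was higher in library 2, and in the Prr5l cluster the intervals, 243 to 293 CPM and 271 to 517 CPM, overlapped. An Rgs5-led cluster of 17 and 34 nuclei, from the capillary and venous endothelium, had medians of 4856 and 6938 UMIs per nucleus and held Cldn5 at 924 and 1008 CPM and Esam at 364 and 302 CPM.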
